A study of Mus musculus with 2 samples.

Results

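Single-cell RNA sequencing of B cells sorted from the colonic lamina propria, the tissue layer beneath the gut epithelium, was searched for the cells richest in transcripts for making ribosomes. A cell was scored by the UMIs (unique molecular identifiers, each standing for 1 captured transcript) of 10 genes, Srm, Pa2g4, Mettl1, Ranbp1, Apex1, Prmt1, C1qbp, Nhp2, Dkc1 and Nme1, divided by all its UMIs. Cells with at least 1000 UMIs and under 20% of UMIs from immunoglobulin and Jchain genes were ranked over both libraries together, and the top 5% were taken. This gave 392 of 7834 cells, 132 of 3232 at day 0 and 260 of 4602 at day 14, and the other 7442 are called the remaining cells. Both groups were female C57BL/6J mice without any genetic change named. The day 0 group was untreated, and the day 14 group drank 2% dextran sulfate sodium (DSS), which injures the colonic epithelium, for 7 days and then recovered for 7 days. One sample tag names DSS for the day 0 library too, so its untreated state rests on the source name, the protocols and the series design. Each group is 1 library, and the sources used here do not give the number of mice in it. No difference was therefore tested, ranges in parentheses are exact 95% intervals that cover counting error only, and "higher" or "lower" describes size alone. In counts of genes these words mean at least 1.5-fold, and for a summed list they mean that the interval of its ratio does not hold 1.

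Ribosomes are built in the nucleolus, where RNA polymerase I transcribes the precursor of ribosomal RNA, small nucleolar ribonucleoproteins guide its modification, and assembly factors fold and cut it while ribosomal proteins are added. A resting B cell makes few ribosomes. After stimulation through its antigen receptor or by T cell help it enlarges, and the transcription factor Myc, which binds the E-box CACGTG, is a known inducer of ribosome assembly, nucleotide synthesis and polyamine synthesis genes. Some of the 10 genes act in these processes, and others act elsewhere in the cell. Dkc1 (dyskerin) and Nhp2 are core proteins of the H/ACA ribonucleoproteins that place pseudouridines in ribosomal RNA. Pa2g4 binds ribosomes, Mettl1 methylates transfer RNA, Prmt1 methylates arginines of RNA-binding proteins, and Ranbp1 regulates the Ran cycle of nuclear transport. Srm makes spermidine, Nme1 makes nucleoside triphosphates, C1qbp is a mitochondrial matrix protein and Apex1 is an abasic site endonuclease.

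Promoter sequence of 3 of the 10 genes is shown because these genes were scored together and their start regions hold the E-box. The windows run from 250 bases before to 30 after the transcription start in RefSeq (GRCm38.p6), 5′ to 3′ on the gene's strand, with CACGTG in capitals. The Apex1 window is chr14:50924699-50924978 on the plus strand, the Prmt1 window chr7:44986391-44986670 on the minus strand and the Nme1 window chr11:93968243-93968522 on the minus strand.
Apex1: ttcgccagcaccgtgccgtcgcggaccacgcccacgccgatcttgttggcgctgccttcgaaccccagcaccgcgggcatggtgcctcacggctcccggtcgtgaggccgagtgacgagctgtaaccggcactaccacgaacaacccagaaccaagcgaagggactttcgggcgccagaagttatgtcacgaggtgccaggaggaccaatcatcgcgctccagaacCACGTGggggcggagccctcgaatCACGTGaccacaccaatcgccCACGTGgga
Prmt1: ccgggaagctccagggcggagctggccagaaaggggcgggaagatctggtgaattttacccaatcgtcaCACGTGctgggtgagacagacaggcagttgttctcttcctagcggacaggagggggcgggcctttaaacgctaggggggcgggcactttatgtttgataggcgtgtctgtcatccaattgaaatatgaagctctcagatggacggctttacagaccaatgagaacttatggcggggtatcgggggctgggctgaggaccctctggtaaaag
Nme1: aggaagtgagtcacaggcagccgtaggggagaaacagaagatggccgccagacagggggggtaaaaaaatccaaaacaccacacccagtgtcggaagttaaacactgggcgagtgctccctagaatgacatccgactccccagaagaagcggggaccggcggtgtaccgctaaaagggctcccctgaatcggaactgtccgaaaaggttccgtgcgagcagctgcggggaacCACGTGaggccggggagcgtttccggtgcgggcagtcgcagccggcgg
The E-box begins at -24, 0 and 21 in Apex1, at -181 in Prmt1 and at -18 in Nme1, with 0 the first transcribed base. In the full RefSeq windows, which end 50 bases after the start, it also lay at 30 in Mettl1. CACGTG is its own reverse complement, so one search covers both strands. Of the 9 scored genes with a window, 4 (44.4%) held it, and Srm had none to search. Across all 27025 genes with a window the share was 8.09%, and across the 3166 with a window that passed the UMI minimum below it was 14.2%. The other assembly genes held it in 18 of 73 windows (24.7%), and the cytosolic ribosomal protein genes in 6 of 63 (9.52%). A match describes these letters and is not a measured binding site.

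The 10 genes chose the cells, so their levels are a description. Levels are counts scaled to the size of the sum (CPM), with immunoglobulin and mitochondrially encoded genes left out of the total, and ratios are chosen over remaining cells. Srm (ENSMUSG00000006442, mm10 chromosome 4, 148591503 to 148594993) was at 208 CPM in chosen and 28.2 in remaining cells at day 0, and at 255 and 32.2 at day 14. Ranbp1 was at 842 against 158 CPM and at 847 against 164. Nme1 was at 910.2 against 212 and at 912 against 231. Over the 10 genes, ratios ran from 4.17 to 7.37 at day 0 and from 3.85 to 7.91 at day 14, with Srm highest on both days. The limit lay at 0.276% of UMIs, against a median of 0.0738% over all cells and a maximum of 0.935%. The cell just inside had 5 of 1809 UMIs from the 10 genes, the cell just outside 6 of 2172, and 219 cells lay within 10% of the limit. The chosen cells are thus the upper end of a range, not a separate class.

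To read each scored gene in cells that it had not helped to choose, the cells were chosen again with the other 9. All 10 genes were then at least 2.72-fold higher on both days. Most cells stayed the same: without Nme1, 103 of 132 cells at day 0 and 207 of 260 at day 14 were also in the main choice. The 10 genes were grouped with earlier results of these data known, so these ratios describe the set and are not independent support for it. Srm had ratios of 5.29 (3.97 to 6.98) at day 0 and 5.47 (4.51 to 6.61) at day 14, Pa2g4 of 5.16 (4.17 to 6.34) and 4.95 (4.27 to 5.73), and Ranbp1 of 3.67 (3.18 to 4.21) and 3.74 (3.38 to 4.13). Nme1 had 3.16 (2.78 to 3.58) and 2.89 (2.63 to 3.17), and Apex1 had 3.92 (3.11 to 4.89) and 2.72 (2.26 to 3.25). Nme1 lies beside its near copy Nme2, and how reads were divided between them was not checked. Mif, a cytokine gene and a marker of these cells that was not scored, was at 1020.3 against 351 CPM at day 0 and at 1283 against 336 at day 14, ratios of 2.91 (2.62 to 3.23) and 3.81 (3.55 to 4.09).

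**Figure D1:**
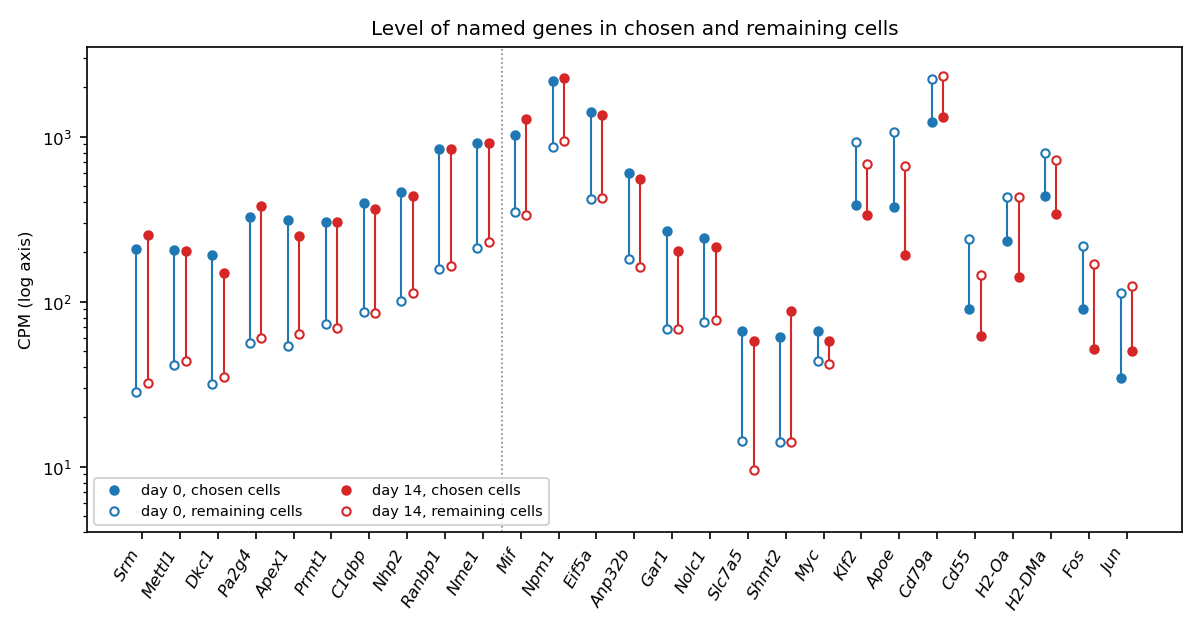
Level in CPM (log axis) of the 10 scored genes, left of the dotted line, and of genes outside the score, in chosen cells (filled) and remaining cells (open) at day 0 (blue) and day 14 (red). The filled points lie above the open ones from Srm to Myc and below them from Klf2 to Jun in both libraries.

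The chosen cells were B cells of ordinary depth, with a tail of very deep ones. The mature B cell markers Cd79a, Cd79b, Ms4a1, Cd37 and Cd74 together gave a median of 73.5 UMIs per chosen cell at day 0 (lowest 17) and 63 at day 14 (lowest 5), against 76 and 73 in remaining cells. Median depth was 2521 UMIs in chosen and 2273 in remaining cells at day 0, and 2420.5 and 2241 at day 14. At 1000 UMIs per cell, chosen cells held a median of 515 genes against 496 at day 0 and 505.5 against 481 at day 14. Cells above 2 times the library's median depth were 10.6% (5.92 to 17.2) of chosen and 3.94% (3.28 to 4.68) of remaining cells at day 0, and 11.2% (7.60 to 15.6) and 6.17% (5.47 to 6.93) at day 14. The deepest 10% of cells gave 29.99% of the UMIs of chosen cells on both days, and 19.2% and 20.4% of those of remaining cells. Sums of the main lists are therefore given again with every cell thinned to 1000 UMIs, and the plot of gene lists shows both. Among chosen cells, the 13 T cell markers gave 9 UMIs at day 0 and 10 at day 14 (22.02 against 9.36 CPM and 12.6 against 6.46), with 9 and 8 of the 13 at 0. The 10 natural killer and innate lymphoid markers gave 1 and 0 UMIs and the 7 neutrophil markers 0 and 1. Macrophage and dendritic markers were lower in chosen cells, at 115 against 202 CPM and 145 against 188, with 10 and 11 of 13 at 0. The part of these markers in the differences given here was not tested. Of 17 barcodes shared by the libraries, 1 was chosen in one library and 0 in both.

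The chosen cells took a larger share of the day 14 library. They were 4.08% (3.43 to 4.83) of passing cells at day 0 and 5.65% (5.0 to 6.36) at day 14. The sort gate and the single library per day can set such shares, and the difference has no replicate check.

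Outside the score, the chosen cells were richer in most of the ribosome assembly genes that could be measured. A list of 87 genes for ribosomal RNA processing and ribosome assembly, none of them scored, stood at 14067 against 6418 CPM at day 0 and at 13931 against 6408 at day 14. The ratios were 2.19 (2.13 to 2.25) and 2.17 (2.13 to 2.22), and 2.18 (2.07 to 2.29) and 2.12 (2.05 to 2.20) with cells thinned to 1000 UMIs. Of the members with at least 200 UMIs in a library, 48 of 61 were at least 1.5-fold higher and 1 lower at day 0, and 62 of 71 were higher and 0 lower at day 14. Over all genes with that many UMIs, 17.1% of 3919 were higher and 16.8% lower at day 0, and 19.4% of 4683 were higher and 14.4% lower at day 14. The median ratio of the list was 2.05 at day 0 and 1.98 at day 14, against 0.997 and 1.03 for all genes. Higher on both days were 484 of 3907 genes (12.4%), and lower on both days 311 (7.96%).

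The difference ran from the most abundant nucleolar proteins to the late assembly factors. Npm1, which encodes nucleophosmin, was at 2163 against 871 CPM at day 0 and 2280.0 against 937 at day 14, ratios of 2.48 (2.31 to 2.66) and 2.43 (2.31 to 2.56). Ncl, which encodes nucleolin, had ratios of 2.53 (2.34 to 2.73) and 2.73 (2.58 to 2.89). Gar1, a partner of Dkc1 and Nhp2 in the H/ACA particle, was at 267 against 68.6 and 204 against 68.6 CPM, ratios of 3.89 (3.13 to 4.79) and 2.98 (2.5 to 3.54). Together these are the major nucleolar proteins and the particle that the score already held 2 subunits of. Nolc1, which chaperones small nucleolar particles, had ratios of 3.26 and 2.80, and Rrp9, a protein of the U3 particle, 3.88 and 3.11. The assembly factor genes Noc2l (3.36 and 3.70), Nop16 (3.83 and 4.28), Bysl (4.63 and 3.14) and Nle1 (2.96 and 4.11) rested on 20 to 81 UMIs in chosen cells. Read cell by cell at 1000 UMIs, the list gave 13.4 ± 6.17 UMIs (SD over 132 cells) in chosen and 6.12 ± 3.12 in remaining cells at day 0, and 13.2 ± 6.40 (260 cells) and 6.18 ± 3.10 at day 14. The central 80% of chosen cells ran from 7 to 21.9 and from 6 to 23 UMIs, against 3 to 10 in remaining cells, so the cells overlapped.

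How many genes counted as higher or lower depended on the scaling. Scaling by all UMIs gave 670 higher and 658 lower genes at day 0 and 910 and 674 at day 14. TMM factors shifted every log2 ratio down by 0.13 and 0.14 and gave 490 and 870, then 656 and 935. Median-of-ratios factors shifted them by 0.11 and 0.12 and gave 523 and 832, then 684 and 892. The assembly list stayed at 1.98 to 2.04 under both.

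**Figure D2:**
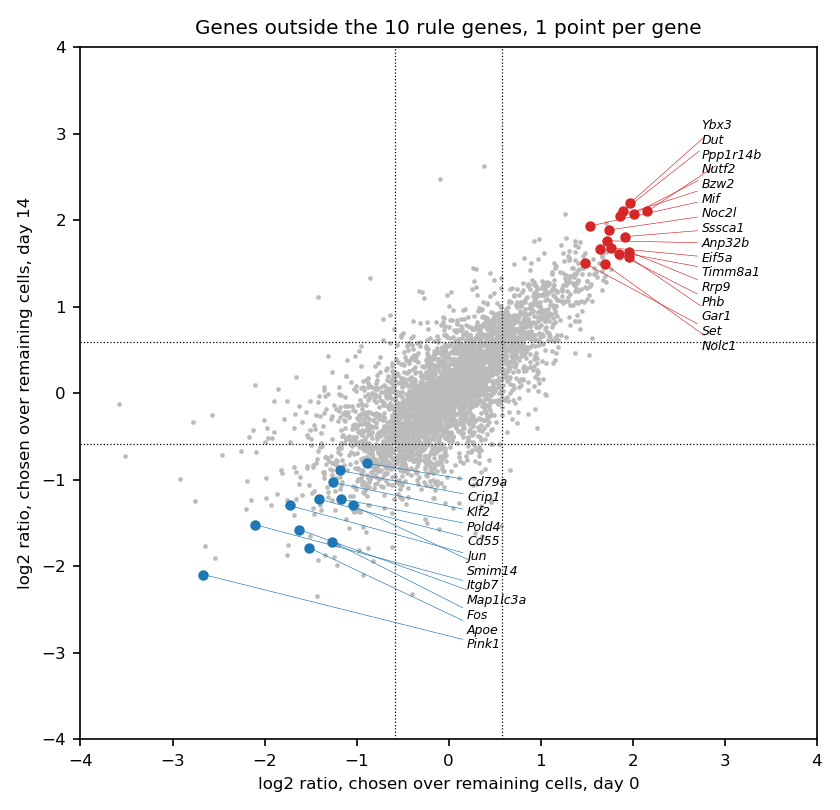
Log2 ratio of chosen over remaining cells at day 0 (x) and day 14 (y) for genes outside the score with at least 200 UMIs in each library, 1 grey point per gene, with dotted lines at 1.5-fold. The 16 highest (red) and 12 lowest (blue) genes by their interval bounds are named, and 7 of 3907 genes (0.179%) were past 1.5-fold in opposite directions.

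RNA polymerase genes were higher to a lesser extent, and the summed Myc network list was not. The list of RNA polymerase I and III subunits and factors had ratios of 1.57 (1.47 to 1.67) at day 0 and 1.57 (1.5 to 1.65) at day 14, and 7 of 18 and 10 of 19 members were higher, with 1 and 0 lower. Cd3eap, a polymerase I subunit gene, had 3.57 and 3.69 from 15 and 40 UMIs in chosen cells. Polr1d, a subunit of both enzymes and the most abundant member, had only 1.26 and 1.2. Myc itself was at 66.1 against 44.0 CPM at day 0 and 58.0 against 42.0 at day 14, from 27 and 46 UMIs in chosen cells. Its ratios of 1.5 (0.975 to 2.23) and 1.38 (0.997 to 1.87) are not detectable differences at this depth. Of the Mxd proteins, which compete with Myc for its partner Max, Mxd4 was lower at 0.400 (0.160 to 0.834) and 0.471 (0.267 to 0.773), from 7 and 16 UMIs. The summed Myc network list had ratios of 1.01 (0.822 to 1.24) and 0.973 (0.835 to 1.13). It pools Myc with Mxd genes, and opposite differences can cancel in it. Of its members, 1 of 4 was at least 1.5-fold higher and 1 lower at day 0, and 1 of 6 higher and 2 lower at day 14.

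Genes of nucleotide synthesis were mostly higher, while those of nutrient uptake and polyamine synthesis were mixed. The nucleotide and one-carbon list had ratios of 2.22 (2.07 to 2.36) and 2.37 (2.26 to 2.49), with 10 of 13 and 15 of 18 members higher and 0 lower, and 1.98 and 1.90 at 1000 UMIs per cell. Its most abundant member is Nme2, the near copy of the scored Nme1. Shmt2, the mitochondrial serine hydroxymethyltransferase, was at 61.2 against 14.0 CPM and at 88.3 against 14.2, ratios of 4.36 (2.70 to 6.79) and 6.24 (4.63 to 8.34). The purine enzyme Pfas had 4.64 and 4.72, the serine enzyme Psat1 3.20 and 4.54 and the folate enzyme Mthfd2 3.13 and 4.07. Slc7a5, the transporter of large neutral amino acids, was at 66.1 against 14.3 and 58.0 against 9.59 CPM, 4.62 (2.91 to 7.10) and 6.05 (4.17 to 8.65). The rest of its list did not follow: amino acid, iron and mTORC1 genes summed to ratios of 1.04 and 1.11, with 2 of 12 and 2 of 13 higher, 3 and 2 lower, and Tsc22d3, a glucocorticoid-induced gene, at 0.550 and 0.556. In polyamine synthesis (ratios 1.70 and 1.74 without Srm, 2 of 9 and 4 of 10 members higher, 0 and 1 lower) Odc1, the rate-limiting ornithine decarboxylase, had 1.47 and 1.83 and Sms, spermine synthase, 2.15 and 2.03. That sum leaned on Eif5a, a member that is itself a translation factor carrying the spermidine-derived residue hypusine, which gave 580 of its 1385 UMIs in chosen cells at day 0 and 1073 of 2580 at day 14. The median member stood at only 1.30 and 1.40. Eif5a was at 1419 against 418 and 1353 against 423 CPM, ratios of 3.39 (3.10 to 3.71) and 3.20 (2.99 to 3.42).

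The same cells held more transcripts for translating, folding and moving proteins. Transfer RNA synthetase genes had summed ratios of 1.78 and 1.82, with 11 of 14 and 14 of 19 members higher and 0 lower, among them Mars (2.76 and 3.09) and Iars (3.07 and 2.58). Chaperonins and folding genes had 1.70 and 1.70, with 20 of 27 higher on each day and 1 lower at day 14, led by the mitochondrial chaperonin Hspd1 (2.47 and 3.13) and the cytosolic chaperonin subunits Cct3 (2.47 and 2.96) and Cct8 (2.25 and 2.77). Nuclear transport genes had 1.81 and 2.04, with 6 of 11 and 6 of 13 higher. In that list Nutf2, which returns Ran to the nucleus, had 4.03 (2.77 to 5.73) and 4.2 (3.06 to 5.69), and Ran itself 2.45 and 3.0. Arginine methylation and messenger RNA processing genes had 1.59 and 1.63, with 19 of 29 and 27 of 33 higher, among them the methyltransferase Prmt5 (3.62 and 2.24) and its partner Wdr77 (2.92 and 2.80).

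Nuclear genes of mitochondrial import were mostly higher, those of the respiratory chain were higher in sum with most members under 1.5-fold, and genes encoded in mitochondria were slightly lower in sum. Mitochondrial import genes had ratios of 1.74 and 1.65 (16 of 24 and 15 of 25 higher), with Timm8a1 at 3.13 and 3.18 and the prohibitin gene Phb at 3.62 and 3.04. Mitochondrial ribosomal protein genes had 1.46 and 1.5 (31 of 63 and 35 of 69 higher, 1 and 0 lower), and nuclear respiratory chain genes 1.31 and 1.35 (26 of 77 and 34 of 77 higher, 1 lower on each day). Respiratory chain genes moved to 1.16 and 1.22 at 1000 UMIs per cell. The mitochondrially encoded genes gave 0.877 (0.861 to 0.894) and 0.857 (0.846 to 0.868), with 0 of 12 past 1.5-fold. Glycolysis genes had 1.61 and 1.67 (9 of 14 and 7 of 14 higher, 1 and 0 lower), with Ldha, lactate dehydrogenase A, at 609 against 232 and 715 against 269 CPM. Proteasome genes had 1.47 and 1.5, with 18 of 35 and 23 of 36 higher. At 1000 UMIs per cell the glycolysis ratios were 1.40 and 1.39 and the proteasome ratios 1.28 and 1.30, smaller but in the same direction.

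In contrast to the factors that build ribosomes, the proteins of the ribosome stood close to their level in remaining cells. The 83 cytosolic ribosomal protein genes made up 359196 CPM in chosen and 357712 in remaining cells at day 0, a ratio of 1.0 (0.999 to 1.01), and 379686 and 391422 at day 14, a ratio of 0.970 (0.966 to 0.974). Of 80 members with enough UMIs, 3 were at least 1.5-fold higher and 0 lower on each day. Rps2, which encodes protein uS5 of the small subunit, was at 1.67 and 1.53, while Rps27, the most abundant member, was at 0.690 and 0.703. Counts of this family can be shared with pseudogenes. Its genes are also a large part of the CPM total and of the UMIs that divide the score. That limits how far their ratio can rise. Translation factors had ratios of 1.24 and 1.19, with 22 of 39 higher on each day and 0 and 1 lower. Initiation factor genes such as Eif3b (3.40 and 2.71) and Eif1ax (2.33 and 3.26) were among them, and Eef1a1, the abundant elongation factor gene, was at 1.01 and 0.998.

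Outside these lists, the highest gene by its lower bounds was Ppp1r14b, which encodes an inhibitor of protein phosphatase 1. It was at 142 against 31.8 CPM at day 0 and 127 against 29.7 at day 14, ratios of 4.46 (3.29 to 5.96) and 4.28 (3.39 to 5.38). The histone chaperone genes Anp32b and Set followed. Anp32b was at 602 against 182 and 551 against 163 CPM, and Set had ratios of 2.78 and 2.83. The cold shock domain gene Ybx3 (3.92 and 4.58), Sssca1 (3.77 and 3.5) and the translation regulator gene Bzw2 (3.64 and 4.14) were also among the 16, with Dut, a nucleotide enzyme of the S phase list, at 3.71 and 4.29.

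**Figure D3:**
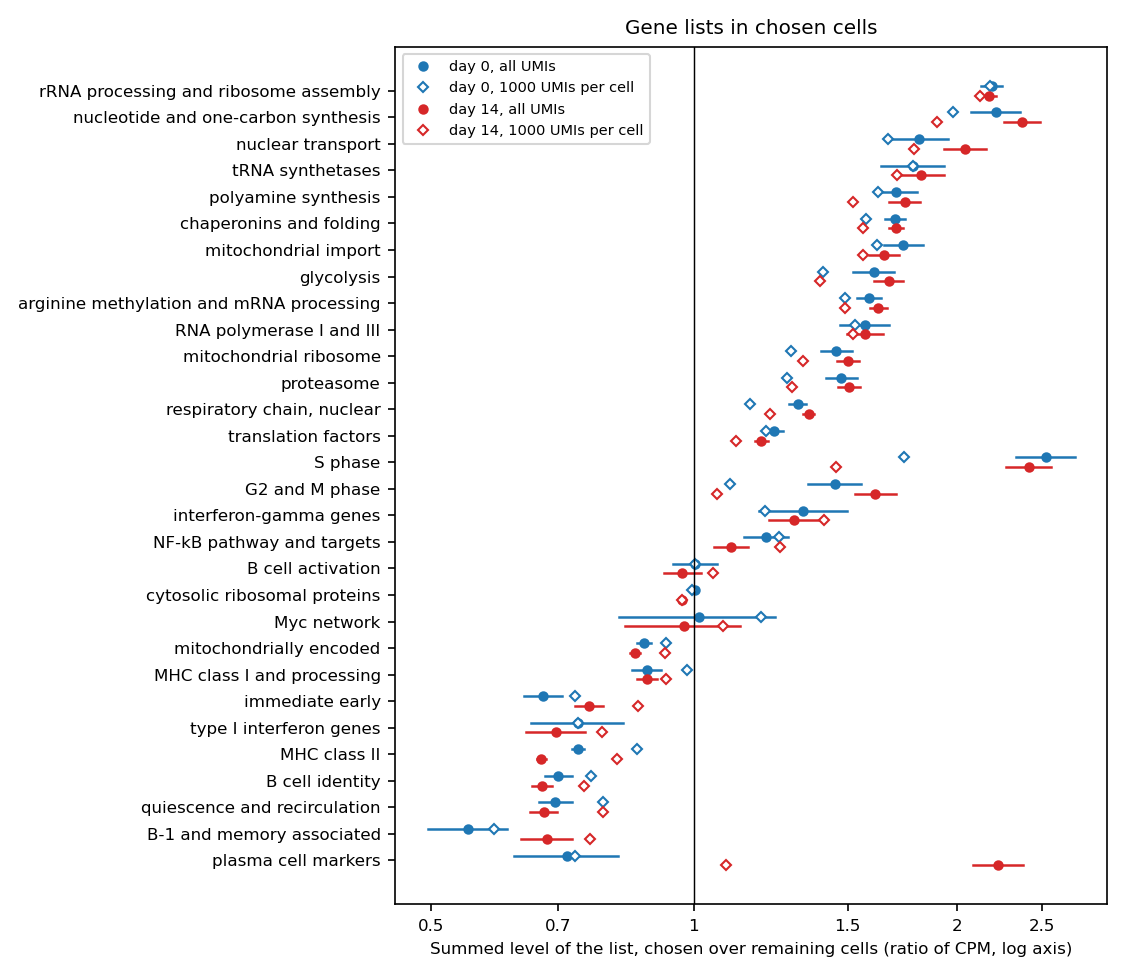
Summed level of 30 gene lists, chosen over remaining cells (ratio of CPM, log axis), at day 0 (blue) and day 14 (red), from all UMIs (circles with 95% counting intervals) and from 1000 UMIs per cell (open diamonds). Ribosome assembly stood near 2.2 on both days by either measure, S phase and plasma cell lists moved toward 1 at equal depth, and B cell identity, quiescence and MHC class II lay below 1.

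On the lower side stood genes of resting, recirculating B cells. Klf2, a transcription factor of quiescence and of trafficking receptors, was at 387 against 923 CPM at day 0 and 334 against 684 at day 14, ratios of 0.419 (0.356 to 0.491) and 0.488 (0.430 to 0.552). The quiescence and recirculation list had ratios of 0.695 (0.664 to 0.726) and 0.673 (0.650 to 0.697), and 0.787 and 0.788 at 1000 UMIs per cell. Of its members, 11 of 19 were lower at day 0 and 10 of 20 at day 14, and 0 were higher. The complement regulator gene Cd55 had 0.377 and 0.427, and Cdkn1b, the cell cycle inhibitor p27, 0.275 and 0.447. Immediate early genes, Fos and Jun among them, were lower as well, with ratios of 0.672 (0.639 to 0.706) and 0.759 (0.730 to 0.788). At 1000 UMIs the ratios were 0.731 and 0.864, and what set the level of these genes was not tested. Of 19 members, 10 were lower and 1 higher at day 0, and 6 lower and 2 higher at day 14. Fos was at 90.5 against 217 CPM and 51.7 against 170.1, and Jun at 34.3 against 114 and 50.4 against 124.

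B cell identity genes were present and lower in sum. Cd79a, the signalling chain of the antigen receptor, was at 1221 against 2249.7 CPM and 1320.3 against 2319, ratios of 0.543 (0.496 to 0.593) and 0.569 (0.535 to 0.606). The list of 27 identity genes had ratios of 0.70 (0.676 to 0.725) and 0.671 (0.653 to 0.688), or 0.763 and 0.749 at 1000 UMIs, with 7 and 12 lower and 0 higher, among them Ets1 (0.563 and 0.612) and Ralgps2 (0.361 and 0.562). Apoe, which encodes apolipoprotein E, was the lowest gene by its bounds, at 374 against 1073 CPM and 192 against 661, ratios of 0.349 (0.295 to 0.409) and 0.290 (0.245 to 0.340). Itgb7, a subunit of the gut-homing integrin, had 0.232 and 0.349 from 6 and 13 UMIs. The autophagy gene Map1lc3a had 0.324 and 0.335, and the mitophagy kinase gene Pink1 only 2 and 6 UMIs, ratios of 0.158 (0.0190 to 0.576) and 0.234 (0.0851 to 0.514). Pold4, a DNA polymerase delta subunit gene (0.445 and 0.428), Smim14 (0.485 and 0.406) and Crip1 (0.440 and 0.538) were the other genes among the 12 lowest.

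MHC class II genes were lower in sum, and the genes of peptide loading were among those past 1.5-fold. The MHC class II list had ratios of 0.738 (0.726 to 0.750) at day 0 and 0.669 (0.661 to 0.677) at day 14. Of its 11 members 4 and 7 were lower and 0 higher, and the ratios were 0.862 and 0.817 at 1000 UMIs per cell. H2-Oa, a chain of the loading inhibitor H2-O, was at 232 against 434 CPM and 141 against 429. Its partner H2-Ob had ratios of 0.547 and 0.407, the loading catalyst chain H2-DMa 0.548 and 0.471, and the invariant chain Cd74 0.748 and 0.680. MHC class I and processing genes had 0.883 and 0.884 in sum, with 2 members higher on each day and 2 and 3 of 17 lower, and the endoplasmic reticulum chaperone Calr, a member, at 1.55 and 1.71. Type I interferon genes were lower in sum, at 0.737 (0.652 to 0.831) and 0.695 (0.643 to 0.751) (4 of 8 and 4 of 13 members lower, 1 and 0 higher), with Slfn2, a gene of lymphocyte quiescence, at 0.253 and 0.506. Interferon-gamma genes were higher in sum only, at 1.33 (1.19 to 1.49) and 1.30 (1.22 to 1.39). Of the members, 2 of 5 and 3 of 11 were at least 1.5-fold higher, and 2 and 1 were lower. The median member stood at 1.15 at day 0 and at 0.847 at day 14. In this list the proteasome activators Psme2 and Psme1 had 2.42 and 2.57, and 1.63 and 1.44, while Serpina3g was at 0.600 (0.161 to 1.58) and 0.677 (0.492 to 0.911).

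Activation genes gave a mixed picture. The B cell activation list had ratios of 1.0 (0.946 to 1.06) and 0.970 (0.924 to 1.02), with 4 members higher and 2 lower of 15 at day 0, and 3 and 2 of 17 at day 14. Ccnd2, which encodes the G1 cyclin D2, was at 252 against 113 CPM and 311 against 114, ratios of 2.24 (1.80 to 2.746) and 2.73 (2.37 to 3.13). Il4ra, the interleukin-4 receptor gene, was at 0.589 and 0.617, and Cd83 at 0.876 and 0.822. In the NF-kB list (ratios 1.21 and 1.10), the survival gene Bcl2a1d had 2.80 and 2.34, and the feedback inhibitor Tnfaip3 0.401 and 0.594. Bcl2a1d has near-identical copies, and how reads were divided among them was not checked. B-1 and memory associated genes were lower, at 0.551 (0.496 to 0.612) and 0.679 (0.635 to 0.725) (5 of 6 and 4 of 7 members), with Plac8 at 0.561 and 0.636. Vim, an intermediate filament gene, was at 0.248 (0.141 to 0.405) at day 0 and 0.805 (0.631 to 1.01) at day 14, and the difference between days was not tested. Among heavy chain genes, Ighm was at 1235 CPM of all UMIs in chosen and 1495 in remaining cells at day 0 and at 1024 and 1333 at day 14. Ighd was at 459.5 and 447.9, then at 372.3 and 465.6. Igha was at 240.4 and 377.9, then at 2406 and 78.6, where 3 chosen cells held 1204, 440 and 320 of the 2003 UMIs at day 14 and 2 remaining cells held 702 and 517 of 2954 at day 0.

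Cell cycle genes were higher in the sums, and 3 cells at day 0 and 6 at day 14 gave 48.0% and 50.5% of these UMIs. S phase genes had ratios of 2.53 (2.34 to 2.73) at day 0 and 2.41 (2.27 to 2.56) at day 14. Of the members with enough UMIs, 8 of 10 and 13 of 16 were higher. Ratios for G2 and M phase genes were 1.45 (1.35 to 1.55) and 1.61 (1.53 to 1.70). Pclaf, a partner of the replication clamp, was at 108 against 11.8 CPM and 105 against 8.26. Chosen cells with at least 3 UMIs of Mki67, Top2a, Pclaf, Ube2c, Birc5 and Rrm2 were 3 of 132 (2.27%, 0.471 to 6.498) and 6 of 260 (2.31%, 0.851 to 4.95), against 0.323% (0.155 to 0.592) and 0.392% (0.228 to 0.626) of remaining cells. Their median depths were 11189 and 19408 UMIs. Without cells of that kind in either set, S phase ratios were 1.48 (1.33 to 1.65) and 1.46 (1.34 to 1.59) and G2 and M phase ratios 0.958 (0.870 to 1.05) and 0.986 (0.915 to 1.06). With all cells at 1000 UMIs they were 1.74 and 1.45, and 1.10 and 1.06. At that depth 9.85% (5.35 to 16.3) of chosen cells at day 0 and 7.31% (4.46 to 11.2) at day 14 had at least 3 S phase UMIs, against 3.13% (2.54 to 3.804) and 2.67% (2.21 to 3.20) of remaining cells. Germinal center markers turned direction, from 1.5 (1.22 to 1.81) and 1.28 (1.04 to 1.57) to 0.456 (0.302 to 0.662) and 0.628 (0.444 to 0.865) without the cycling cells. The assembly list did not lean on them, with ratios of 2.21 (2.15 to 2.28) and 2.26 (2.21 to 2.31).

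Plasma cell markers were lower in the chosen cells at day 0 and higher at day 14, where the sum rested on 3 cells. The list without Jchain had ratios of 0.716 (0.623 to 0.819) and 2.23 (2.09 to 2.38). The 3 cells held 21187, 20905 and 18353 UMIs. Plasma cell markers, here counted with Jchain, gave 526, 490 and 351 UMIs in them. Of these, 302, 199 and 161 were Jchain, out of the 683 Jchain UMIs of chosen cells at day 14. The same 3 cells held 440, 1204 and 320 UMIs of Igha. Immunoglobulin made up 14.2%, 19.2% and 14.2% of their UMIs, under the 20% limit, and they carried 35, 22 and 17 UMIs of the 6 cycle genes. Cells with at least 100 plasma cell marker UMIs, Jchain included, were 0 chosen cells at day 0 and 3 at day 14. Without such cells the ratio of the list without Jchain at day 14 was 0.828.

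The assembly list stood higher at each step of the score, on both sides of the limit, while other lists differed in where they dropped. Cells were ordered by the 10-gene share into 8 steps over both libraries. The assembly list went from 5507 CPM in the lowest 25% of cells at day 0 to 9688 in the step just under the limit (percentile 90 to 95) and 19571 in the top 1% (27 cells). At day 14 the same 3 steps stood at 5346, 9353 and 18417 CPM (52 cells in the last). MHC class II genes at day 0 stood at 52714 CPM in the lowest step, 46555 just under the limit, 45544 just above it and 26574 in the top 1%. At day 14 those steps stood at 49316, 46983, 35479.7 and 31179.6 CPM, with the largest drop at the limit. Quiescence genes likewise went from 5735 CPM just under to 4356 just above the limit at day 14, and from 6097 to 5325 at day 0. The day 14 step just above the limit held the 3 cells rich in plasma cell markers. With Jchain counted, those markers stood at 4381 CPM there, against 569 just under the limit. The drops were not recomputed without these 3 cells. Cytosolic ribosomal protein genes lay between 349728 and 375898 CPM in all 8 steps at day 0 and went from 404144 to 374333 at day 14. The S phase list peaked just above the limit, at 2413 CPM at day 0 and 1788 at day 14, and was at 1513 and 991.7 CPM in the top 1%.

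**Figure D4:**
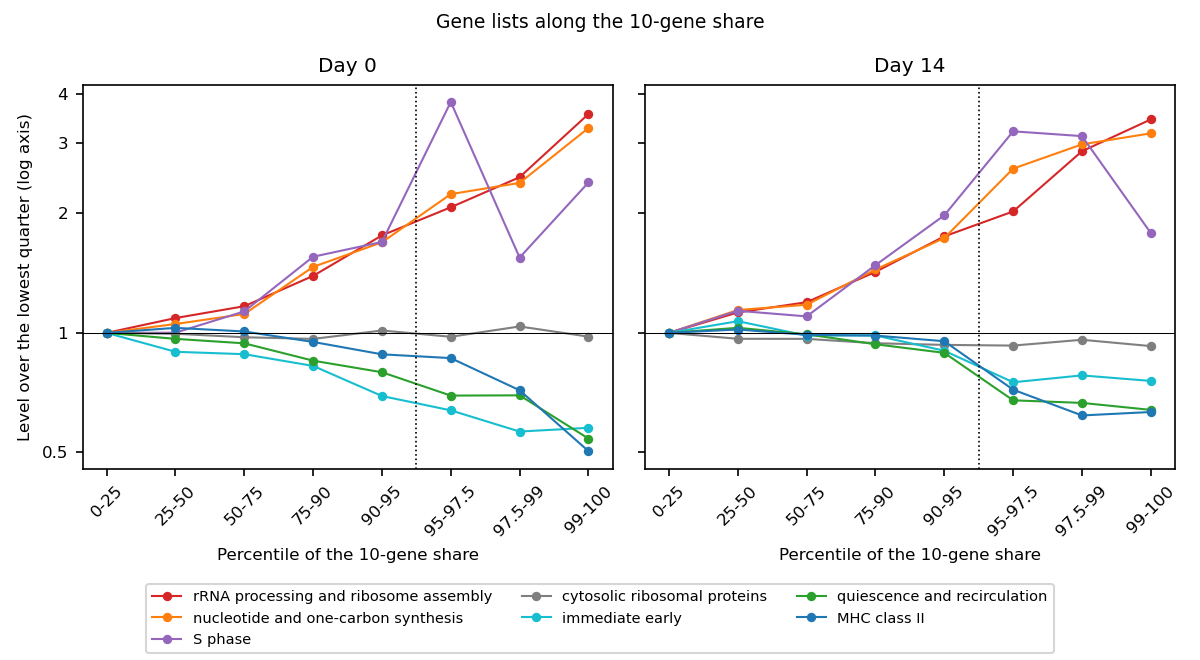
Summed level of 7 gene lists in 8 steps of the 10-gene share, relative to the lowest 25% (log axis), at day 0 (left) and day 14 (right), with the limit of the chosen cells as a dotted line. Ribosome assembly rises from step to step on both sides of the limit, MHC class II and quiescence lists are lowest above the limit, and cytosolic ribosomal proteins stay within 10% of the start.

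The second comparison asked what differed in these cells between untreated mice and mice recovering from DSS. The ribosome assembly list differed by less than counting error, and interferon-gamma genes were higher at day 14 in the chosen as in the remaining cells. Of 2846 genes with at least 50 UMIs in chosen cells, 149 (5.24%) were at least 1.5-fold higher and 164 (5.76%) lower at day 14. TMM factors, which shifted log2 ratios up by 0.08, gave 208 and 115, and median-of-ratios factors 186 and 129. The assembly list had a day 14 over day 0 ratio of 0.990 (0.959 to 1.02) in chosen and 0.998 (0.987 to 1.01) in remaining cells. Chosen cells of both days passed the same score limit, and the 10 scored genes had a ratio of 0.986 (0.930 to 1.05). The assembly list rises with the score, so this choice limited how far it could differ between days in chosen cells. The interferon-gamma list went from 785 to 1288 CPM in chosen cells, a ratio of 1.64 (1.44 to 1.86), and from 589 to 989 in remaining cells, 1.68 (1.62 to 1.74). At 1000 UMIs per cell the ratio in chosen cells was 2.00 (1.57 to 2.57). Cells with at least 3 UMIs of the list at that depth were 3.79% (1.24 to 8.62) of chosen cells at day 0 and 14.6% (10.6 to 19.5) at day 14, and 2.10% (1.62 to 2.66) and 9.28% (8.43 to 10.2) of remaining cells. Serpina3g, a protease inhibitor gene, went from 4 to 46 UMIs, a ratio of 5.93 (2.16 to 22.7) against 5.25 (4.34 to 6.40) in remaining cells, and Psme2 had 1.40 (1.12 to 1.75). Irf1, a transcription factor gene, had 1.21 (0.704 to 2.16) in chosen and 2.07 (1.82 to 2.36) in remaining cells. The type I interferon list was also higher at day 14, at 1.25 (1.09 to 1.44) in chosen and 1.33 (1.29 to 1.37) in remaining cells. The chosen and remaining ratios were not tested against each other.

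The 6 genes lowest at day 14 by their bounds included receptors and signalling regulators of B cells. Fcmr, a receptor for IgM, was at 526 CPM at day 0 and 267 at day 14 in chosen cells, a ratio of 0.508 (0.418 to 0.617), against 0.790 (0.757 to 0.824) in remaining cells. Fcer2a, which encodes CD23, was at 284 and 117, 0.413 (0.311 to 0.548) against 0.603 (0.568 to 0.641). Rgs1, a G protein signalling regulator, went from 41 to 13 UMIs, 0.163 (0.0803 to 0.311) against 0.395 (0.353 to 0.441), and 13 of the 41 lay in 1 cell. Apoe had 0.512 (0.406 to 0.645), the adaptor gene Grap 0.485 (0.362 to 0.648) and the biliverdin reductase gene Blvrb 0.433 (0.280 to 0.666), with 15 of its 50 day 0 UMIs in 1 cell. Blvrb in remaining cells was at 1.0 (0.925 to 1.08). MHC class II genes had 0.849 (0.833 to 0.866) in chosen and 0.936 (0.932 to 0.940) in remaining cells. Without the cells rich in plasma cell markers, the ratio in chosen cells was 0.899. With chosen cells at 1000 UMIs each it was 0.892 (0.864 to 0.921). The ratio of remaining cells at that depth was not computed, so the gap at equal depth was not tested.

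Of the 6 genes highest at day 14 by their bounds, 5 had much of their day 14 UMIs in 1 to 3 cells and the other was Serpina3g. Slpi went from 0 to 109 UMIs, of which 108 lay in 1 plasma-marker-rich cell. The heat shock gene Hspa1a went from 8 to 98 UMIs with 43 in 1 cell, and AC160336.1 from 4 to 52 with 26 in 1 cell. Mzb1, a chaperone of antibody secretion, had 2.48 (2.03 to 3.06) and Creld2, an endoplasmic reticulum stress gene, 3.75 (2.17 to 6.92). Without the 3 plasma-marker-rich cells these were 0.888 and 0.807, and the plasma cell list moved from 2.52 (2.18 to 2.93) to 0.938. Hspa1a kept 6.67 and Serpina3g 5.77.

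**Figure D5:**
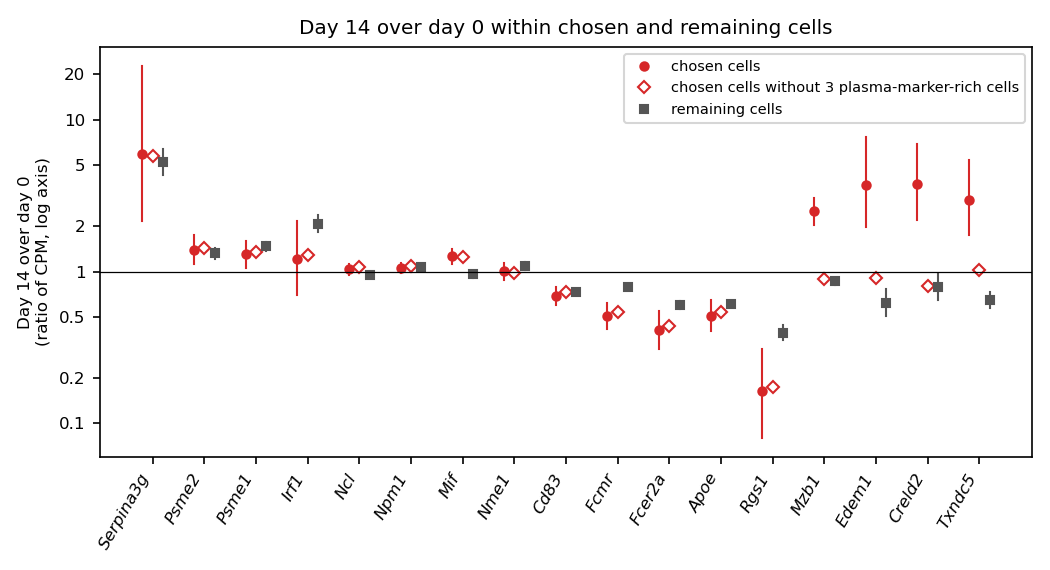
Day 14 over day 0 (ratio of CPM, log axis) for 17 genes in chosen cells (red circles), in chosen cells without the 3 plasma-marker-rich cells (open diamonds) and in remaining cells (grey squares), with 95% counting intervals for the circles and squares. Serpina3g lies above 1 and Fcmr, Fcer2a, Apoe and Rgs1 below 1 in all 3, and Mzb1, Edem1, Creld2 and Txndc5 fall to about 1 without the 3 cells.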

How the data were processed

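Flow-sorted colonic lamina propria B cells gave 1 library in each group. The authors deposited UMI count matrices, which Cell Ranger 3.0.1 wrote per the file headers and which use build mm10 per the submitters' processing notes, which also name Seurat 3.0. The deposited natural log tables hold ln(1 + UMIs × 10000 / total UMIs), and all 53946130 and 76934724 values compared matched the counts within a relative tolerance of 0.001. Their headers defined the cell set, and every level came from the counts. Strand settings and the gene annotation of the counting are not named in those notes.

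Of 3376 and 4780 barcodes, 3290 and 4692 were in those headers, 3256 and 4629 had at least 1000 UMIs, and 3232 and 4602 had under 20% immunoglobulin and Jchain (393 genes). These held 8241489 and 11840594 UMIs. No doublets were removed, no doublet caller was run, and cells over 2 times the median UMIs were left out in an alternative. Counts were summed per library over chosen and remaining cells and scaled as CPM without immunoglobulin and 13 mitochondrially encoded genes. Ratios have exact conditional 95% intervals and shares exact Clopper-Pearson intervals, all for counting error alone. No test was run, since a group is 1 library. Genes with at least 200 UMIs in a library (day comparison: 50 in chosen cells) were counted, without the scored genes between chosen and remaining cells, and higher or lower means at least 1.5-fold.

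The members and lists were chosen with earlier results of these data known. Named genes are the 10 scored genes and Mif, the 16 highest and 12 lowest by interval bound (without immunoglobulin, mitochondrial, ribosomal protein, scored and predicted genes), up to 4 most different members and the most abundant member of each list, and the 6 highest and 6 lowest between days. Ncl, Irf1, Txndc5, Cops2, Stx8, Id2, Tmx1 and Mapre2 fall outside that rule, their values having been seen before they were picked. Gene IDs matched GENCODE M21 in 30934 of 31053 cases (99.6%). Some genes taken by this rule are not reported here. The code was tested on simulated data. Python 3.11.15, numpy 2.4.6, scipy 1.17.1, pandas 2.3.3 and matplotlib 3.10.9 were used.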

Additional observations from a re-analysis of the deposited data

Results flagged for a closer look

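Plasma cell markers stood on opposite sides of level in the chosen cells of the 2 days, with a ratio to the remaining cells of 0.716 at day 0 and 2.23 at day 14. The plasma cell gene Mzb1 went with them, at 0.645 (117 UMIs) and 1.86 (564 UMIs, 175 of them in 1 cell), as did Txndc5, a protein disulfide isomerase gene, at 0.554 (16 UMIs) and 2.52 (92 UMIs, 30 in 1 cell). A further 5 genes were past 1.5-fold in opposite directions. Cops2 was at 0.664 and 1.66 from 9 and 42 UMIs, Id2 at 0.375 and 2.15 from 5 and 36, Tmx1 at 0.612 and 1.81 from 10 and 47, and Mapre2 at 0.612 and 1.53 from 11 and 37. Stx8 went the other way, at 1.59 and 0.54 from 22 and 14 UMIs. In every case the difference between days was not tested, because each day is 1 library.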

How the results depend on the processing

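No paired analysis was possible because each group is 1 library. Of the recomputed values, 84 stayed and 65 moved, where a share or list ratio moved if it left its counting interval and a gene count if it differed by over 1.5 times. That rule compared counts, not shares of the genes tested. Genes tested were 3919 at day 0, 4683 at day 14 and 2846 between days unless another number is given. Neither list ratio crossed 1, but the balance of higher against lower genes turned with the scaling (910 and 674 at day 14 became 656 and 935 with TMM factors). A score from 1000 UMIs per cell, with its ties, took 8.54% and 10.41% of cells at day 0 and day 14, with 355 genes higher and 236 lower, then 524 and 244, and assembly list ratios of 1.648 and 1.722. The top 2.5% gave shares of 1.825% and 2.977%, assembly ratios of 2.562 and 2.513, and 79 higher and 81 lower of 1584 genes between days. The top 10% gave 8.756% and 10.89%, 393 and 326 lower genes, and 1.91 and 1.922. With 2 times the UMI minimum per cell the assembly ratios were 2.255 and 2.351. Without cells over 2 times the median depth, 594 of 4202 genes were higher at day 14 and the assembly ratio there was 2.11. In that setting 103 of 2122 genes were lower between days and the interferon-gamma ratio was 1.914. Without cells with at least 3 S, G2 and M phase UMIs, 1987 cells stayed (24 and 76 chosen). The day 0 share was then 3.395%, with 75 genes higher and 104 lower of 778, then 132 and 145 of 1437. The assembly ratios were 1.931 and 1.842. Between days 30 and 21 of 416 genes were higher and lower, and the interferon-gamma ratio was 2.045. Assembly ratios were 2.004 and 1.979 with TMM and 2.036 and 2.006 with median-of-ratios factors. A UMI minimum 4 times lower gave 1474 higher and 1608 lower of 7380 genes, then 1654 and 1443 of 7892, and 744 and 850 of 6152 between days. A minimum 2.5 times higher gave 286 and 287 of 1846, then 442 and 333 of 2445, and 29 and 34 of 1190 between days. Of the 20 ratios of scored genes, 17 moved when cells were chosen with the other 9, and 0 fell below 1.

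The following were chosen after seeing the data. With sums from 1000 UMIs per cell, 258 genes were higher and 298 lower of 1813, then 344 and 316 of 2417, with 50 and 51 of 911 between days. The day 14 assembly ratio was then 2.124 and the interferon-gamma ratio 2.002. The day 14 assembly ratio was 2.247 without the plasma-marker-rich and 2.26 without the cycling cells. Choosing the top 5% within each library gave 5.012% at day 0 and assembly ratios of 2.106 and 2.249. The cause of these moves was not tested. At median depths of 2521 and 2420.5 UMIs per chosen cell, the UMIs of a gene limit its ratio.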

Other observations

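The cells left out for their immunoglobulin content seldom reached the limit, although they were richer in the 10 genes than the remaining cells once immunoglobulin was left out of the total. These 24 cells at day 0 and 27 at day 14 had median depths of 18973.5 and 14833 UMIs. The 10 genes summed to 1616 and 2132 CPM in them, against 841 and 897 in the remaining cells and 4159.7 and 4102 in the chosen cells. Their median shares of all UMIs were 0.0555% and 0.0946%, and 0 at day 0 and 1 at day 14 reached the limit of 0.276%.

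Light chain use gave overlapping shares. Lambda was the more abundant light chain in 8.40% (4.27 to 14.5) of chosen and 7.12% of remaining cells with at least 3 light chain UMIs at day 0, and in 4.88% and 4.63% at day 14. Free RNA of light chains can add to these shares, and its part was not tested.

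Among the genes that were higher on both days, 71 of 408 with a RefSeq window (17.4%) held CACGTG. The share was 36 of 251 (14.3%) for genes lower on both days and 341 of 2507 (13.6%) for the others.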
